A study of Danio rerio with 6 samples.

Results

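The genes described here are those for the cytosolic ribosomal proteins of the zebrafish, followed through single sorted wells of the pituitary. They were taken by name: every row of the count tables whose symbol begins with rpl or rps and a number, together with rplp0, rplp1, rplp2, rplp2l and rpsa, and without the rps6k kinases. The rule found 81 of the 31417 rows, 46 with large-subunit and 35 with small-subunit names, and 80 of them had at least 1 UMI (a unique molecular identifier, which counts captured mRNA molecules once). It also takes rps19bp1, a binding protein of RPS19 that is not itself a ribosomal protein, and rps8b, which had 0 UMIs and could not be tested. The study sorted cells enriched for the neurohypophysis, the posterior lobe, from fish of the AB strain carrying Tg(pomca:EGFP), in which the pomca promoter drives EGFP. The groups were juveniles at 37 dpf (days post fertilisation), males at 5 months and males at 7 months. All fish had been injected with the fluorescent dipeptide β-Ala-Lys-Nε-AMCA (4.6 mM) 3 hours before dissection, adults with the larger volume, and the cells were stained with propidium iodide. The sort gate is not given in the sources used here. Each age was a single pool of 5 pituitaries sorted onto 2 plates of 384 wells, numbered in accession order, so plates of 1 age share their animals and any p-value measures the spread between plates.

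The cytosolic ribosome is built from a small subunit, which reads the mRNA, and a large subunit, which joins the amino acids, and each subunit combines ribosomal RNA with its own set of proteins. In the vertebrates studied, mRNAs of these proteins carry a pyrimidine-rich start that couples their translation to growth signalling, and they are among the most abundant mRNAs of dividing cells. Zebrafish keep some of these genes as pairs of like copies, such as rpl22 and rpl22l1 or rps27.1 and rps27.2. Reads of like copies, and of pseudogenes, may have been split or lost by the counting, so levels of the single copies are uncertain.

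Wells with at least 400 UMIs were kept: 311 and 339 at 37 dpf, 257 and 174 at 5 months, then 203 and 106 at 7 months. They held 990934 and 1166584, 439266 and 261477, and 204347 and 81949 UMIs on those plates. Classes were set by summed marker shares: erythroid (from 10% of UMIs), gonadotropin-rich (from 5%), and macrophage, stromal and pituicyte (from 1%, with at least 3 markers seen). Pituicytes, the glia that define the posterior lobe, numbered 7 and 8 wells at 37 dpf, 30 and 20 at 5 months, then 41 and 29 at 7 months. Wells of no class were led by krt5, cyt1, krt97, pvalb2, icn2 and gh1, and stromal wells carried keratinocyte markers at 0.51 to 1.17% of UMIs. The 4 adult plates shared a sequencing batch, 37 dpf plate 2 was in another and plate 1 was not listed, so age against 37 dpf and batch cannot be told apart. The 5 listed plates used the same 384 cell barcodes, a plate primer set, and shared 0 well names. In summed wells, fewer cells of a type and less RNA per cell cannot be told apart.

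Among the rows taken by the rule, no gene dominated. RPL41, left out for its name in capitals, had 22978 UMIs in kept wells, more than any of them. Of the members, rplp1, a protein of the acidic stalk that recruits translation factors, had the most UMIs (16026, or 2.23% of the members' 719966). It was followed by rps2 with 15467, the stalk base gene rplp0 with 14617, rps12 with 12763 and rpl7a with 12544. The fewest were in rpl5a with 3767 UMIs, rpl22l1 with 2803, the large-subunit-like gene rpl7l1 with 398, and rps19bp1 with 88. The 0 UMIs of rps8b among 3144557 allow a level of up to 0.954 CPM (a gene's UMIs over all UMIs of the summed wells, scaled to 1e+06). UMIs are tags near the 3′ end, so these counts do not scale with transcript length, though capture may differ between genes. The median member held 1.3% of the family's UMIs, and 77 lay between 0.5 and 2.5%. Across the 6 plates the proportions varied little: the highest share was within 1.5 times the lowest for 69 of 80 genes and within 2 times for 77. The other 3 were rps19bp1 (4.06 times), rpl7l1 (3.85 times) and rpl22l1 (2.63 times). Large-subunit genes made up 57.9 and 58.1% of the members' UMIs at 37 dpf, 58.2 and 59.1% at 5 months, then 58.8 and 60.3% at 7 months.

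Taken as a sum, ribosomal protein genes held 28.1 and 25.7% of all UMIs at 37 dpf, 14.7 and 14.0% at 5 months, then 15.3 and 11.7% at 7 months. The means were 26.9 ± 1.66%, 14.4 ± 0.50% and 13.5 ± 2.56% (SD, n = 2 plates each). Both plates of each adult age lay below both plates at 37 dpf, while the plates at 7 months fell on either side of those at 5 months. With 2 plates against 2, an exact two-sided permutation test cannot give a p below 0.33, and none is given. Mitochondrial (mt-) and AC024175 rows together moved the other way, at 15.8 and 19.3%, 32.2 and 38.6%, and 28.5 and 31.2% of UMIs in the same order, and their part in the difference between ages was not tested. With these rows taken out of the total, the ribosomal share was 32.6 ± 1.02% at 37 dpf, 22.3 ± 0.79% at 5 months, then 19.2 ± 3.11% at 7 months.

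Wells in which mt- and AC024175 rows held over 50% of UMIs had ribosomal shares of 2.98 and 5.86%, 4.66 and 3.32%, and 5.57 and 3.95%. There were 1 and 7 of them at 37 dpf, 85 and 71 at 5 months, then 29 and 16 at 7 months, mostly wells of no class. Without them, the summed share was 28.1 and 25.9% at 37 dpf, 16.5 and 17.0% at 5 months, then 16.1 and 12.7% at 7 months. The adult plates thus stayed below the 37 dpf plates. Over wells of a plate, the share correlated with UMIs per well, a description of wells that share a library (Spearman's rho 0.55 and 0.56 at 37 dpf, 0.54 and 0.48 at 5 months, 0.27 and 0.22 at 7 months).

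The marker classes differed in how far their summed share followed age. Wells of no class held 29.3 and 27.0% at 37 dpf, 11.1 and 8.8% at 5 months, then 14.6 and 11.0% at 7 months. Macrophage wells, led by the class's own markers cd74a and cd74b, antigen-presentation genes, held 19.8 and 18.0%, 17.3 and 17.2%, and 14.9 and 15.1% (20 and 24, 24 and 11, and 8 and 4 wells). Stromal wells, led by col10a1a and then by the class's own marker collagens col1a1a, col1a1b and col1a2, held 23.0 and 21.6%, 20.7 and 18.7%, and 17.9 and 14.3% (86 and 101, 36 and 32, and 68 and 15 wells). The adult plates were lower in both classes, by less than in wells of no class, a difference not tested on the summed shares. Without mt- and AC024175 rows, macrophage wells held 24.9 and 24.5%, 24.4 and 24.6%, and 21.9 and 23.8%, so that the plates at 37 dpf and 5 months overlapped. On the same basis stromal wells held 27.1 and 26.0%, 28.1 and 26.3%, and 23.3 and 19.4%. Pituicyte wells held 14.6 and 15.8% at 5 months, then 12.4 and 10.5% at 7 months, with 17.5 and 12.1% in the few wells at 37 dpf. Gonadotropin-rich wells, with the class markers lhb, cga and fshb among the leading genes, held 16.0 and 17.7% at 5 months.

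**Figure D1:**
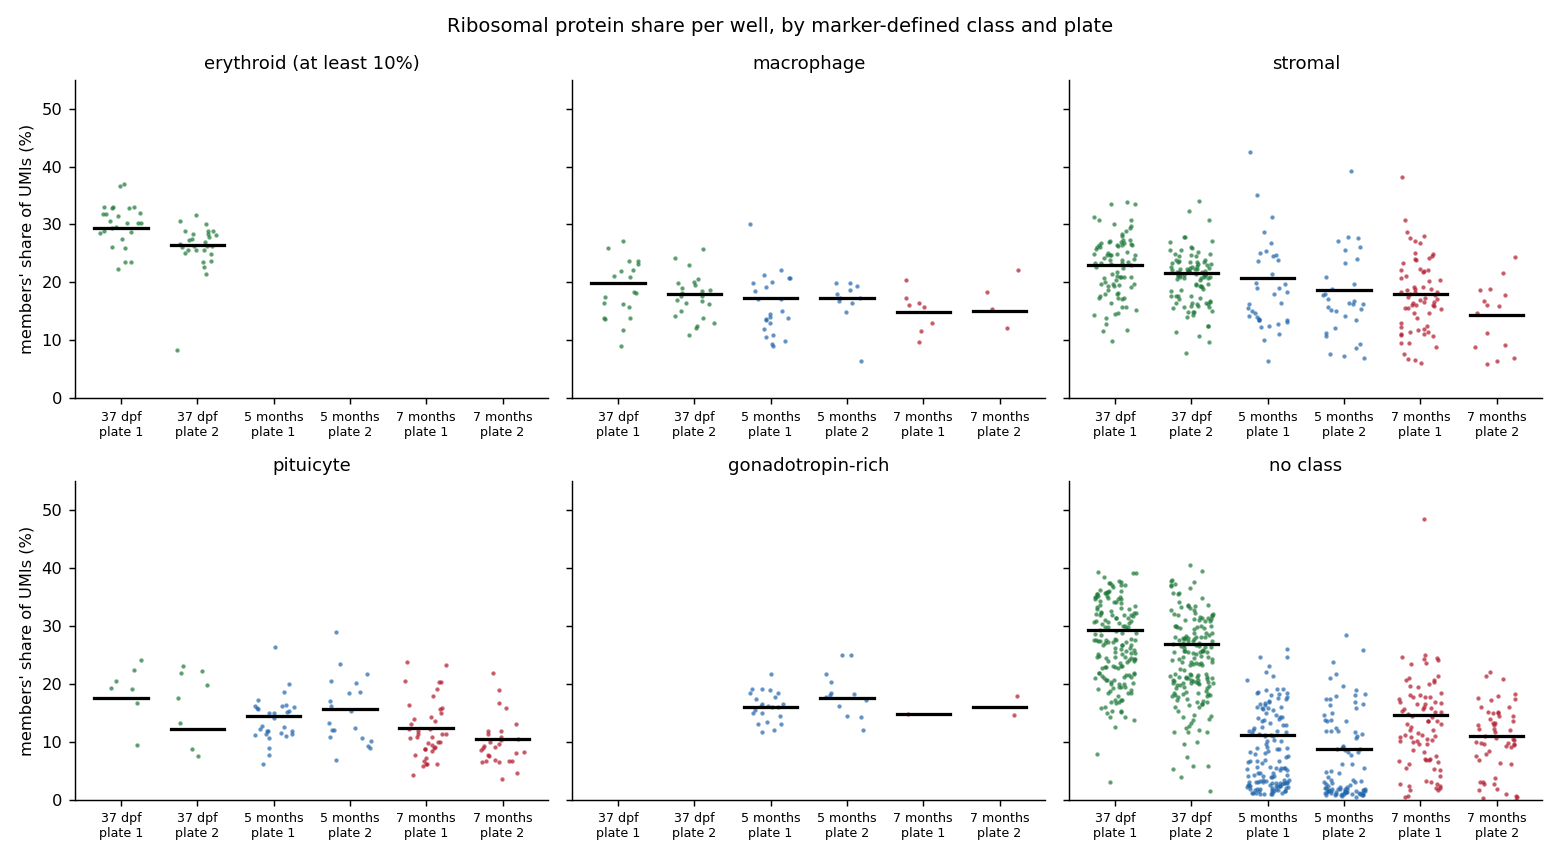
Share of each well's UMIs in ribosomal protein genes (vertical axis, %), by marker class (panels) and plate (horizontal axis, 37 dpf to 7 months); points are wells and the black line is the share of the summed UMIs. Wells of no class spread down to near 0 on the plates at 5 months, where the summed shares were 11.1 and 8.8%, while the summed shares of macrophage and stromal wells were 17.2 to 20.7% at that age.

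Set against the other wells of the same plate, macrophage and stromal wells held the lower share at 37 dpf and the higher share at 5 months. At 37 dpf, macrophage wells held 19.8 and 18.0%, against 28.2 and 26.0% in other non-erythroid wells. At 5 months they held 17.3 and 17.2%, against 14.1 and 13.5% in the other wells. At 7 months, with 8 and 4 wells, they held 14.9 and 15.1%, against 15.3 and 11.3%, and so lay on either side of the other wells. Stromal wells held 23.0 and 21.6% at 37 dpf, against 28.7 and 26.1% in the other wells. At 5 months stromal wells held 20.7 and 18.7%, against 14.0 and 13.2%, and at 7 months 17.9 and 14.3%, against 13.9 and 11.3% in the other wells. With wells of over 50% mt- and AC024175 UMIs left out, macrophage wells at 5 months held 17.7 and 17.2%, against 16.2 and 17.1%. Stromal wells then held 20.9 and 20.0%, against 15.9 and 16.5% in the other wells.

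Macrophage wells were also deeper, with median UMIs of 3452.5 and 3819 per well at 5 months, while stromal wells had 1156.5 and 1053, beside plate medians of 1200 and 1084.5. The part of depth in these shares was not tested.

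**Figure D2:**
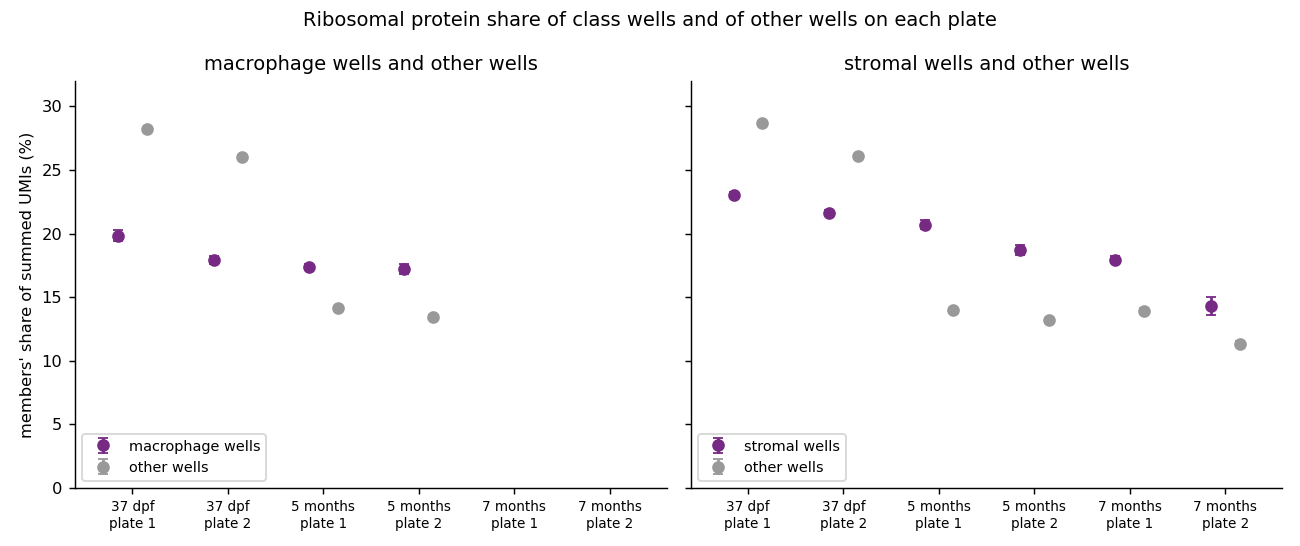
Share of summed UMIs in ribosomal protein genes (vertical axis, %) in macrophage or stromal wells (left point of each pair) and the other non-erythroid wells (right point), by plate; bars are 95% exact binomial intervals, which cover counting error only. The class lies below the other wells on both plates at 37 dpf and above them on both plates at 5 months; macrophage wells at 7 months, 8 and 4 in number, are not drawn.

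Gene by gene, the class difference between ages was tested in an edgeR quasi-likelihood fit with the class difference at each age as a term, a fit chosen after the shares were seen. In stromal wells against other wells, 68 of 79 tested members fell at 37 dpf (of all genes, 55.2% were called and 30.6% lower), with a median log2 fold change of -0.70, against -0.32 over all genes. The count was 26 with library size scaling, 21 with erythroid wells removed from 2% of UMIs and 2 without the wells of over 50% mt- and AC024175 UMIs. Of all genes, 1159 of 2375, 925 of 2262 and 1110 of 2474 were called in either direction, in that order. The members' medians were -0.32, -0.45 and -0.53, against 0.02, -0.23 and -0.16 over all genes. Their median SEs were 0.17, 0.23 and 0.39, against 0.25 in the first fit. Only 8 kept wells at 37 dpf were over 50%. On the adult plates 0 of the 79 passed (background 28.2%, with 4 members at an unadjusted p under 0.05), and the median was 0.06, against -0.26. With library size scaling 48 were higher there and 0 lower (median 0.39, against 0.00), and 702 of 2375 genes were called in either direction. For the adult difference minus that at 37 dpf, 26 members were higher and 0 lower (background 14.8%, 4.97% higher), with a median of 0.80, against -0.09 over all genes. Among the most strongly shifted were the large-subunit genes rpl35 (1.12 ± 0.31, SE, adjusted p = 0.0053) and rpl11 (1.09), with rps3a (1.05) of the small subunit. Without the wells of over 50% mt- and AC024175 UMIs this difference was called for 0 members (0 at an unadjusted p under 0.05, median 0.38), and with erythroid wells removed from 2% of UMIs, for 2. Over all genes it was called for 309 of 2474 and 202 of 2262 in those fits. Macrophage wells at 7 months were under the minimum of 10 wells per plate, so their adult plates here were those at 5 months. In macrophage wells against other wells, 71 of 79 members fell at 37 dpf (background 35.8%, 16.4% lower) and 19 on the adult plates (background 30.2%, 16.8% lower). With library size scaling the adult direction turned: 15 were higher and 0 lower, with a median of 0.25, against 0.36 over all genes. In that fit 759 of 2390 genes were called in either direction. With TMM the median was -0.67 at 37 dpf, against -0.32 over all genes, and -0.37 on the adult plates, against -0.15. Between the ages only rps20, of the small subunit, was called, higher by 1.01 ± 0.26 (adjusted p = 0.0025; background 6.90%, 1.67% higher). Without the wells of over 50% mt- and AC024175 UMIs 18 members were higher, and scaled by library size, 61. Over all genes, 190 of 1975 and 286 of 2390 were called in either direction in those fits.

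Over the 4 plates at 37 dpf and 5 months with ages pooled, macrophage wells had 26 of 79 members lower than other wells (background 30.4%, 14.6% lower, median -0.53, against -0.33 over all genes). The count was 0 without either 37 dpf plate, 5 without 5 months plate 2, and 0 with library size scaling, which moved the median of all genes to 0.01. The share of all genes called in these alternative fits is not given. Only 1 member was lower and 1 higher on all 4 plates in CPM, counts not set beside those of all genes. The lowest by fold was rpl22l1, a like copy of rpl22, with 358 and 442 CPM in macrophage wells at 37 dpf, against 1277 and 1053 CPM in other wells. At 5 months it had 223 and 304 CPM in macrophage wells, against 268 and 271 CPM, and the fitted change was -1.22 ± 0.36 (adjusted p = 0.021). Rpl29, rps18, rpl5b and rps26 fell by 0.80, 0.78, 0.77 and 0.76 on the log2 scale, with like patterns over plates. Rpl5b, for example, had 1129 and 1138 CPM in macrophage wells at 37 dpf, against 2187 and 2029 CPM, and 1633 and 1266 CPM at 5 months, against 1267 and 1267 CPM. In stromal wells with ages pooled, only rpl7l1 was called, at -1.47 ± 0.56 (adjusted p = 0.038), of 79 (background 36.0%, 19.7% lower). It had 33.6 and 64.0 CPM in stromal wells at 37 dpf, against 199.7 and 166 CPM, and its 0 UMIs at 7 months plate 2 allow up to 312 CPM, so that library does not place it. The call was lost without any single plate other than 5 months plate 2.

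Erythroid wells, led by the class's own markers, the globin genes hbaa1 and hbba1 and cahz, were found at 37 dpf. There 26 and 28 wells held 29.4 and 26.5% ribosomal protein UMIs, against 27.9 and 25.6% in other wells. They also held more UMIs, with medians of 5124.5 and 6789.5, against plate medians of 2105 and 1878. Of 80 members, 22 rose and 0 fell (background 24.3%, 7.68% higher, median 0.16, against -0.06 over all genes). In CPM 46 were higher and 10 lower on both plates (median log2 change 0.06), counts not set beside those of all genes. Rpl22l1 was the largest, with 1772 and 1181 CPM in erythroid wells, against 1237 and 1017 CPM (0.47 ± 0.09, adjusted p = 4.12e-05). Rpl11, which joins the 5S ribosomal RNA particle, had 4140 and 3944 CPM, against 3634 and 3404 CPM (0.30 ± 0.07, adjusted p = 0.00087). Rps15a and rpl29 rose by 0.28 each. The count was 1 with library size scaling and 0 by DESeq2, and 10 with erythroid wells taken from 2% of UMIs. In that wider class the largest was rpl7l1, at 1.05 ± 0.21 (adjusted p = 4.2e-06), against 0.04 at the 10% threshold, and rpl22l1 was at 0.51. Scaled to the summed members, the wider class had 4 members higher and 5 lower, rplp2 among the lower at -0.37. For these alternative fits the share of all genes called is not given.

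Wells with 2 to 10% erythroid marker UMIs, 40 and 50 in number, held still more ribosomal protein UMIs, at 30.7 and 28.2%. Along the marker share, the median ribosomal share was 23.1 and 20.7% of UMIs in wells under 1% of marker UMIs, 32.1 and 27.7% from 2 to 5%, and 26.8 and 23.1% at 20% and over (4 and 6 wells). Counted without the erythroid marker UMIs, that last group stood at 37.0 and 29.5%, so the marker UMIs themselves filled part of the total.

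**Figure D3:**
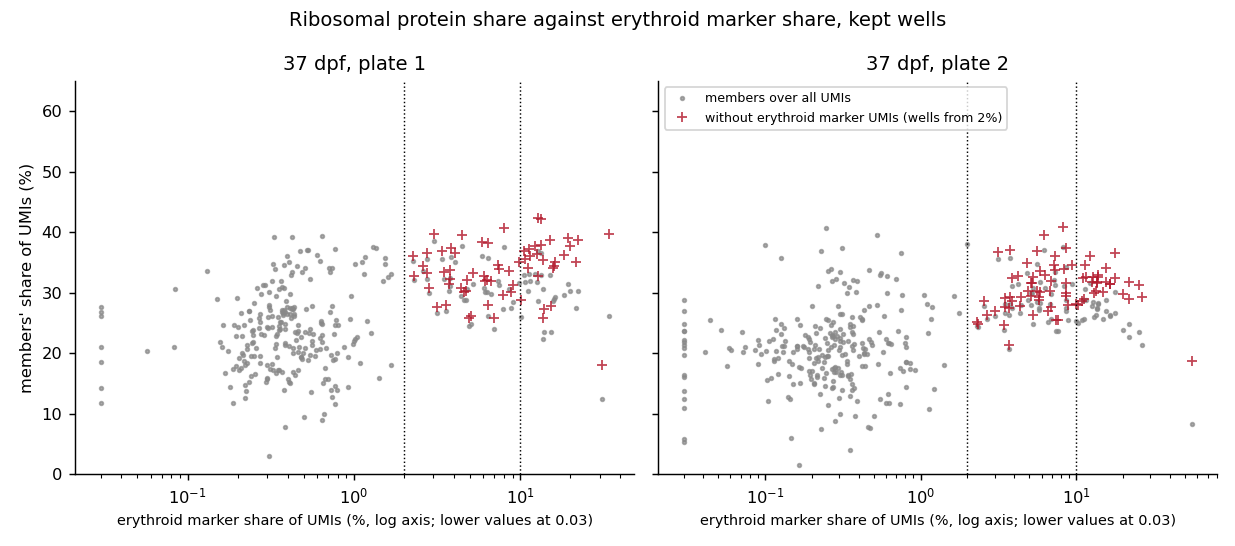
Wells at 37 dpf: ribosomal protein share of UMIs (vertical axis, %) against erythroid marker share of UMIs (horizontal log axis, %, values under 0.03 drawn there), with red crosses for the share counted without erythroid marker UMIs and dotted lines at 2 and 10%. Wells from 2 to 5% marker UMIs have medians of 32.1 and 27.7%, above the 23.1 and 20.7% of wells under 1%.

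Across non-erythroid wells, the members were lower in adults, in both subunits. At 5 months against 37 dpf, 47 of 80 fell and 0 rose (background 47.6%, 24.9% lower), with a median log2 fold change of -0.66, against -0.06 over all genes. All 80 were lower on both plates in CPM. At 7 months against 37 dpf, 75 fell and 0 rose (background 45.9%, 24.4% lower), with a median of -0.95, against -0.14, and 78 did not overlap. These comparisons share the 37 dpf plates, and the counts of members that did not overlap between plates were not set beside those of all genes. The count at 5 months was 16 without 37 dpf plate 1, 7 and 2 without 5 months plates 1 and 2, and 75 without either 7 months plate, and 16 with erythroid wells removed from 2%. Depth differed as well, with median UMIs per kept well of 2105 and 1878 at 37 dpf, 1200 and 1084.5 at 5 months, 923 and 675.5 at 7 months. With each well thinned to 400 UMIs, 4 members fell at 5 months (median -0.07, against 0.05) and 14 at 7 months (median -0.27, against -0.01), each against 37 dpf. For all fits of this paragraph that left out a plate, wells or UMIs, the share of all genes called is not given. At 7 months against 5 months, within a single batch, 0 of 80 passed (background 2.50%) by edgeR or by DESeq2, and 4, among them rpl14, rps2 and rps27.1, had an unadjusted p under 0.05. The median there was -0.31, against -0.06 over all genes. In CPM, without TMM, the members' median log2 change was -0.09. In CPM 11 members were lower and 1 higher on both plates, counts not set beside those of all genes.

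**Figure D4:**
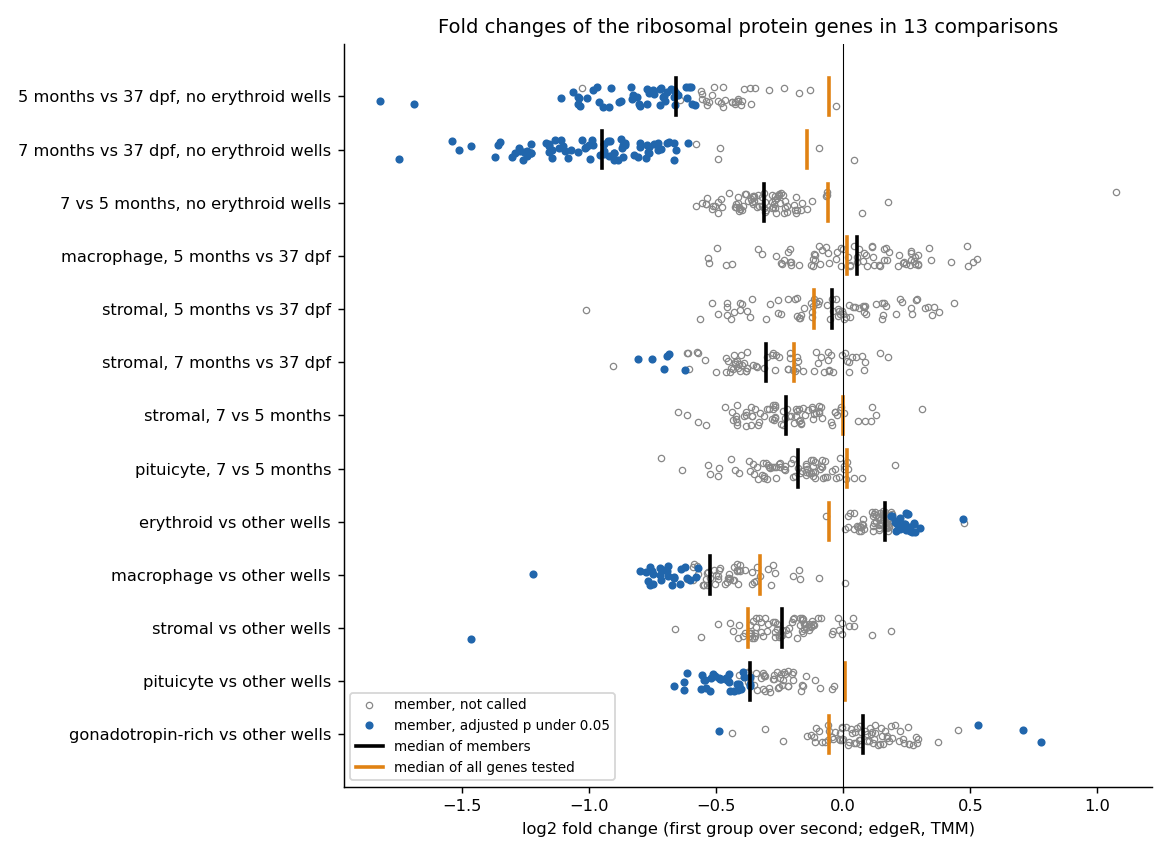
Log2 fold changes of the ribosomal protein genes (horizontal axis) in 13 comparisons of ages or classes (rows); filled points have an adjusted p under 0.05, black bars are medians of the members and orange bars medians of all genes tested. The members' medians lie at -0.66 and -0.95 for 5 and 7 months against 37 dpf, and at -0.31 for 7 against 5 months, where no point is filled.

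Among the stalk proteins, rplp0 had 5521 and 5437 CPM at 37 dpf, 2955 and 2536 CPM at 5 months, then 2672 and 1916 CPM at 7 months. It fell by 0.76 ± 0.24 at 5 months (adjusted p = 0.016) and by 1.24 ± 0.24 at 7 months (adjusted p = 0.00094), each against 37 dpf. Rplp1 had 6091 and 5843, 3178 and 3014, and 3426 and 2953 CPM, and fell by 0.71 ± 0.22 and 0.90 ± 0.23 at 5 and 7 months. Its stalk partner rplp2 had 2185 and 2168, 1580 and 1782, and 1595 and 1110 CPM, at -0.13 ± 0.25 (adjusted p = 0.70) and -0.67 ± 0.26 (adjusted p = 0.046). The like copy rplp2l had 4265 and 4099, 1796 and 1820, and 1771 and 1757 CPM and fell further, by 0.97 ± 0.22 and 1.25 ± 0.23. Rpsa, the small-subunit protein also known as a laminin receptor, had 3868 and 4007, 2664 and 2287, and 2736 and 2026 CPM. It passed at 7 months only (-0.72 ± 0.24, adjusted p = 0.023), with -0.44 at 5 months (adjusted p = 0.14).

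The largest falls at both adult ages included rpl22l1, with 1233 and 1017 CPM at 37 dpf, 262 and 279 CPM at 5 months, then 382 and 268 CPM at 7 months. It fell by 1.82 ± 0.29 at 5 months (adjusted p = 0.00015) and by 1.75 ± 0.30 at 7 months (adjusted p = 0.00031). No adult plate came near a 37 dpf plate. Rpl7l1, a sparse gene with 176 and 153, 59.2 and 22.9, and 48.9 and 73.2 CPM, fell by 1.69 ± 0.37 and 1.51 ± 0.43. Both of its calls were lost with erythroid wells removed from 2% (adjusted p = 0.074 and 0.19). Rps24, needed in human cells for maturation of small-subunit RNA, had 5256 and 4298, 1767 and 1973, and 2202 and 1635 CPM (-1.11 ± 0.25 and -1.30 at 5 and 7 months). Rpl27 was at -1.06 ± 0.23 at 5 months, rps20 at -1.05 ± 0.25 and -1.54 ± 0.26, and rpl38 at -1.46 ± 0.26 at 7 months. Of the most abundant genes, rps12 had 4869 and 4859, 2313 and 1989, and 2055 and 1745 CPM and fell by 0.94 and 1.35. Rps2, at the mRNA entry of the small subunit, had 5952 and 5506, 3499 and 3197, and 3235 and 1977 CPM, and passed at 7 months only, at -1.12 ± 0.26. Rpl7a fell by 0.70 and 0.99, and rpl7 by 0.92 and 1.17. Rps19bp1, the sparse binding protein, had 25.9 and 35.6, 11.4 and 15.3, and 29.4 and 36.6 CPM and passed at neither age. Rps8a had 4564 and 4279, 2456 and 2031, and 2378 and 1708 CPM and passed at both (adjusted p = 0.019 and 0.0023).

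Within a class, fewer members passed. In macrophage wells at 5 months against 37 dpf, 0 of 78 passed (background 8.29%; 0 by DESeq2 and 3 at an unadjusted p under 0.05), with a median of 0.05, against 0.01 over all genes. In stromal wells 0 of 78 passed at 5 months against 37 dpf (background 21.7%; 0 by DESeq2 and 8 at an unadjusted p under 0.05), with a median of -0.04, against -0.11. At 7 months against 37 dpf, 6 of 78 fell in stromal wells (background 26.5%, 12.4% lower; median -0.31, against -0.20). Rps21 led them with 1362 and 832 CPM at 7 months, against 2646 and 2047 CPM at 37 dpf (-0.81 ± 0.25, adjusted p = 0.031). Rpl23a, at the tunnel exit of the large subunit, had 2050 and 1456 CPM, against 3722 and 3190 CPM (-0.75, adjusted p = 0.025). Rps24, rpl38, rpl27 and rps20 fell by 0.71, 0.69, 0.69 and 0.62. None of the 6 passed by DESeq2 or with erythroid wells removed from 2%. The count was 0 without 37 dpf plate 1, either 5 months plate or 7 months plate 2, and 2 without 37 dpf plate 2. At 7 months against 5 months, 0 of 78 stromal (background 0.825% higher and 0.275% lower) and 0 of 77 pituicyte members (background 0.730%) passed, by edgeR or DESeq2, with 3 each at an unadjusted p under 0.05. In CPM, without TMM, 44 stromal members were lower on both plates at 5 months than at 37 dpf and 8 higher (median log2 change -0.18). In macrophage wells 25 members were lower and 10 higher between those ages (median -0.11). At 7 months 63 stromal members were lower on both plates than at 37 dpf and 0 higher (median -0.49). Against 5 months, 45 stromal members were lower and 1 higher (median -0.26), and 61 pituicyte members lower and 0 higher (median -0.38). These plate counts, and the counts by DESeq2 or with a plate or wells left out, were not set beside those of all genes. Whether the age difference itself differed between stromal or macrophage wells and the rest is the class-by-age difference given above.

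Pituicyte wells had 33 of 78 members lower than other adult wells (background 44.4%, 20.8% lower), with a median of -0.37, against 0.01. Their summed share was 14.6 and 15.8% at 5 months, against 14.8 and 13.8% in other wells, and 12.4 and 10.5% at 7 months, against 16.0 and 12.2%. Among the largest changes were those of rps26, rpl31, rps2 and rpl37, from -0.67 ± 0.16 to -0.56. Rps26, which contacts the mRNA at the exit channel, had 976 and 721 CPM in pituicyte wells at 5 months, against 1126 and 1030 CPM, and 777 and 622 CPM at 7 months, against 1131 and 865 CPM. Rps2 had 2972 and 2941 CPM at 5 months, against 3571 and 3229 CPM, and 2330 and 1493 CPM at 7 months, against 3472 and 2179 CPM (-0.61, adjusted p = 0.0038). Only 14 members were lower on all 4 plates in CPM, a count not set beside that of all genes. With library size scaling, which set the median of all genes at 0.29, 0 members passed and the members' median was -0.07. Without 7 months plate 2 the count was 12. The share of all genes called in these alternative fits is not given.

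Gonadotropin-rich wells at 5 months had 3 members higher and 1 lower than other wells, of 78 (background 41.3%, 17.5% higher and 23.9% lower, median 0.08, against -0.06). In CPM 65 were higher and 4 lower on both plates (median log2 change 0.26), counts not set beside those of all genes. The summed share was 16.8 ± 1.17%, against 13.9 ± 0.81% in the other wells (SD, n = 2 plates). Without mt- and AC024175 rows it was 22.1 ± 1.83%, against 22.7 ± 0.53%, so the class was then not higher. Of the 3 called higher, rpl22l1 had 374 and 541 CPM in gonadotropin-rich wells, against 231 and 223 CPM (0.78 ± 0.31, adjusted p = 0.045). Rps26 had 1495 and 1599 CPM, against 1016 and 863 CPM (0.53 ± 0.20, adjusted p = 0.032). Rps20 fell, with 1339 and 1528 CPM, against 1841 and 1678 CPM (-0.49 ± 0.20, adjusted p = 0.045). DESeq2 called 0 of the 4.

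Like copies of some pairs differed in how they varied. Of the UMIs of rpl22 and rpl22l1 together, rpl22l1 held 37.5% (95% exact interval 35.9 to 39.1) and 37.4% (35.7 to 39.1) at 37 dpf. It held 19.3% (16.2 to 22.7) and 17.4% (13.9 to 21.4) at 5 months, and 21.7% (17.5 to 26.3) and 22.0% (14.3 to 31.4) at 7 months. No adult interval reached those at 37 dpf, but the intervals cover counting error only, not the spread between plates or fish. All kept wells were counted here, and only those at 37 dpf included erythroid wells. At 37 dpf the share was 46.9 and 40.8% in erythroid wells, 27.3 and 24.6% in stromal wells and 12.6 and 24.1% in macrophage wells. Stromal wells had 15.2 and 13.2% at 5 months, then 17.8 and 16.7% at 7 months. In a fit scaled to the summed members, so that the family's own level is removed, rpl22l1 still fell at 5 months (-1.16 ± 0.24, adjusted p = 0.0020) and at 7 months (-0.80, adjusted p = 0.023) against 37 dpf. It rose in erythroid wells against others (0.31, adjusted p = 0.019). With erythroid wells removed from 2%, the call at 5 months held on that scale (-1.03, adjusted p = 0.0092) and the call at 7 months was lost. Its partner rpl22 had 2213 and 1750 CPM at 37 dpf, 1095 and 1327 CPM at 5 months, then 1380 and 952 CPM at 7 months, and passed at 7 months only (-0.75 ± 0.28, adjusted p = 0.038).

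Rps27.2 went the other way within its pair. Its own level was 1247 and 1274 CPM at 37 dpf, 1102 and 998 CPM at 5 months, then 1326 and 1013 CPM at 7 months, and it passed at neither adult age (-0.03 and -0.09). Rps27.1 had 2586 and 2491, 1826 and 1537, and 1522 and 1135 CPM, and fell by 0.92 ± 0.24 at 7 months. Rps27.2 thus held 32.2 and 33.3% of the pair's UMIs at 37 dpf, 37.6 and 39.4% at 5 months, then 46.6 and 47.2% at 7 months. Scaled to the summed members it rose at 5 months (0.63, adjusted p = 0.015) and at 7 months (0.88 ± 0.19, adjusted p = 0.0027). On that scale rplp2 (0.52) and rps26 (0.48) also rose and rps24 (-0.45) fell at 5 months, while rpl28 (0.50) and rpl26 (0.49) rose and rps20 (-0.58) and rpl38 (-0.48) fell at 7 months. With erythroid wells removed from 2%, the calls of rps27.2, rplp2 and rps26 at 5 months and of rpl28 at 7 months were lost, and rps27.2 at 7 months held (0.80, adjusted p = 0.0091). The remaining pairs were rplp2l with rplp2, rps26l with rps26, rpl5b with rpl5a and rpl7l1 with rpl7. Rplp2l held 66.7 and 65.4% of its pair at 37 dpf, 53.2 and 50.5% at 5 months, then 52.6 and 61.3% at 7 months. Rps26l held 68.4 and 68.0%, 56.3 and 55.7%, and 58.6 and 53.6% in that order. Rps26l fell by 0.91 ± 0.26 at 5 months and 1.28 ± 0.27 at 7 months, while rps26 passed at neither (-0.17 and -0.58). Rpl5b, whose product binds 5S ribosomal RNA, held 60.5 and 59.6%, 61.9 and 60.0%, and 63.7 and 64.7% in that order. Rpl5a (adjusted p = 0.0066) and rpl5b (-0.73 ± 0.24, adjusted p = 0.024) both passed at 7 months and neither at 5 months. Rpl7l1 held at most 4.5% of its pair with rpl7 on any plate.

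**Figure D5:**
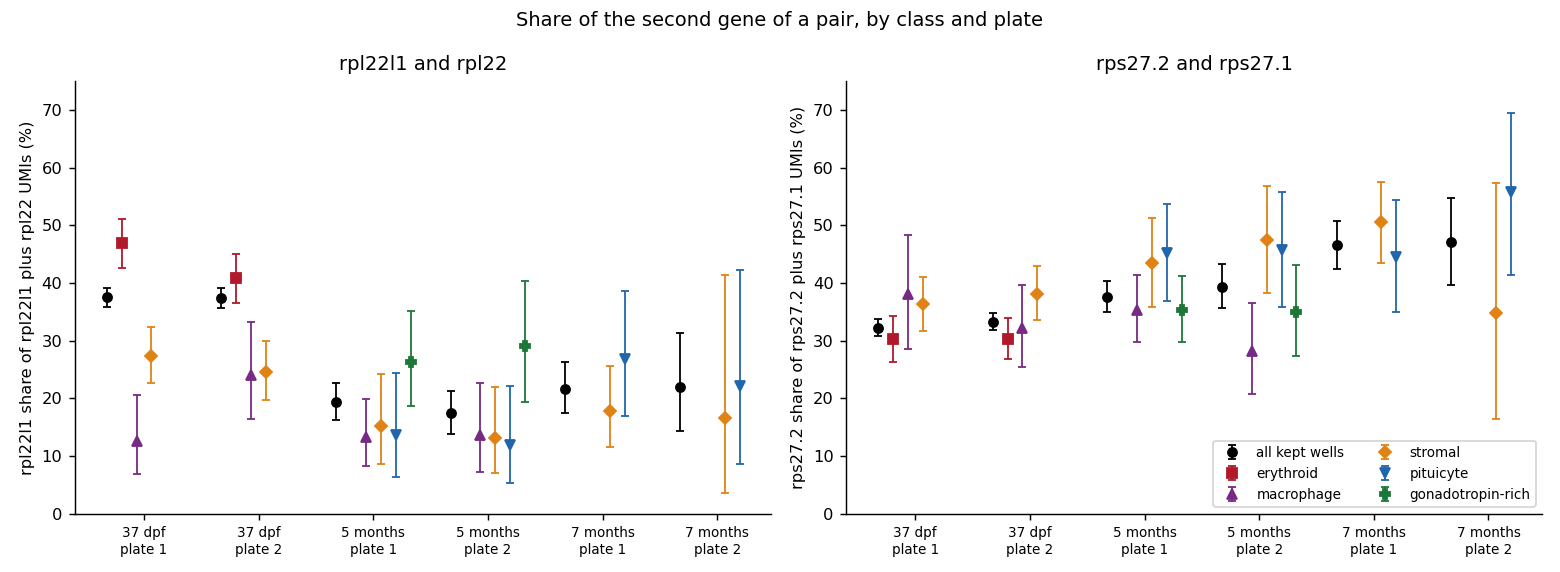
Share of a pair's UMIs (vertical axis, %) from rpl22l1 (of rpl22l1 and rpl22) and rps27.2 (of rps27.2 and rps27.1), by class and plate (horizontal axis); bars are 95% exact binomial intervals, which cover counting error only. Over all kept wells rpl22l1 lies at 37.4 to 37.5% at 37 dpf and 17.4 to 22.0% in adults, and rps27.2 at 32.2 to 33.3% and 37.6 to 47.2%.

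Gene lists for other parts of the translation machinery were lower in adults as well, counted in the main fit only. How these counts depend on depth, or on wells with 2% erythroid marker UMIs, was not tested. Of 43 tested genes of a translation factor list, 24 fell and 2 rose at 5 months against 37 dpf (median -0.73), and 28 fell and 2 rose at 7 months (median -0.99). The list also held genes that are not translation factors in the strict sense. Among them were the ribosomal protein gene fau, rack1, tpt1, naca, btf3 and eif4ebp genes. Of all genes 24.9% and 24.4% were lower at those ages, with medians of -0.06 and -0.14. Of 40 ribosome biogenesis genes, 27 fell at 5 months and 30 at 7 months, with 0 rising (medians -1.45 and -1.91). Of 63 mitochondrial ribosomal protein genes, 44 and 42 fell and 0 rose (medians -1.49 and -1.89). At 7 months against 5 months 0 of any list passed by edgeR (medians -0.32, -0.58 and -0.38). In erythroid wells 9 of 41 biogenesis genes fell and 1 rose (median -0.41, against -0.06 over all genes, of which 16.7% were lower).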

How the data were processed

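Whole-number UMI counts per gene and well came as deposited by the authors from MARS-seq (single-cell RNA-seq in plates). The submitters' processing notes name bcl2fastq 2.15.0.4, Seurat 3.1.5 and danRer10; the counter and annotation are not given in the sources used here. Wells under 400 UMIs and 6 wells of more than 1 class were left out of class sets; no doublet caller was run. Sums of counts over a plate's wells of a class went into edgeR 4.0.16 in R 4.3.3 (quasi-likelihood test, TMM scaling, filterByExpr, Benjamini-Hochberg threshold 0.05), with a plate block for class comparisons. SE is the log2 fold change divided by the square root of F. DESeq2 1.42.0 was an alternative. The scripts were tested on simulated data. Members, gene lists and classes were chosen with earlier results of these data known. Named genes were up to 5 called in each direction per comparison, the 5 with most and the 5 with fewest UMIs, all like-copy pairs, rplp0, rplp1, rplp2 and rpsa; rpl14 and genes of the member-scaled and class-by-age fits were named after their values were seen. Lists of translation factors and biogenesis genes came from general knowledge, and mitochondrial ribosomal proteins were taken by name. Results of a few genes are not reported here.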

Additional observations from a re-analysis of the deposited data

Results flagged for a closer look

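Wells under 400 UMIs, left out of every comparison, held ribosomal protein shares of 20.5 and 18.4% at 37 dpf, 5.39 and 5.17% at 5 months, then 9.63 and 7.39% at 7 months.

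The rows RPL41, RPL37A and RPS27L, with names in capitals, lay outside the naming rule and held 30032 UMIs in kept wells. They had 22978, 6847 and 207 UMIs in that order, so that RPL41 had more than any member.

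The sign of the summed share in class wells minus other wells differed between 37 dpf and 5 months on both plates of each age. For macrophage wells it was -8.40 and -8.09 percentage points at 37 dpf and 3.23 and 3.74 at 5 months. At 7 months the macrophage wells, 8 and 4 in number, held 14.9 and 15.1%, against 15.3 and 11.3% in other wells. For stromal wells it was -5.63 and -4.48 points at 37 dpf, 6.67 and 5.50 at 5 months, then 4.00 and 2.97 at 7 months. Without wells of over 50% mt- and AC024175 UMIs, macrophage wells at 5 months held 17.5 ± 0.36%, against 16.7 ± 0.61% in other wells (SD, n = 2 plates). Stromal wells at 5 months then held 20.4 ± 0.67%, against 16.2 ± 0.43%. The difference between ages in these sums was not tested; the gene-by-gene test is in the report.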

How the results depend on the processing

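No paired analysis was possible because the labels give the plates no replicate numbers by which to pair ages; class comparisons carried the plate as a block. Among the comparisons listed next no call was reversed. In the fit with an age term, macrophage wells at 5 months had 15 members higher and 0 lower with library size, against 19 lower with TMM. Counts are of members called, and those of all genes are not given beside them here. At 5 months against 37 dpf (47) they were 75 with library size in place of TMM, 5 scaled to the summed members, 17 with 1000 UMIs per well, 4 with wells thinned to 400 UMIs, 16 with erythroid wells from 2%, and 2 to 75 leaving out a plate. At 7 months against 37 dpf (75) they were 6 scaled to members, 14 thinned and 61 to 78 leaving out a plate; at 7 against 5 months (0), 0 to 28. Erythroid (22): 0 by DESeq2, 1 with library size, scaled to members or without the filter, 8 with 1000 UMIs, 10 from 2%. Macrophage (26): 44 by DESeq2, 0 with library size or scaled to members, 4 at 0.5 times and 57 at 2 times the class threshold, 17 without wells over 50% mt- and AC024175 UMIs, 71 on the 37 dpf plates, 0 to 32 leaving out a plate. Stromal (1): 8 at 2 times the threshold, 68 on the 37 dpf plates, 0 under DESeq2, library size, member scaling, 1000 UMIs, 0.5 times the threshold, 2% erythroid wells, without the high mt- wells and on the adult plates, 0 to 1 leaving out a plate. Stromal 5 months against 37 dpf (0): 7 with library size, 1 with 1000 UMIs, 6 at 2 times the threshold, 0 to 1 leaving out a plate. Stromal 7 months against 37 dpf (6): 15 with library size, 0 by DESeq2, scaled to members, unfiltered, without mt- and AC024175 genes or with 2% erythroid wells, 0 to 6 leaving out a plate; stromal 7 against 5 months (0), 0 to 1. Pituicyte (33): 11 by DESeq2, 0 with library size or member scaling, 78 unfiltered, 9 with 1000 UMIs, 58 at 2 times the threshold, 63 with at least 5 wells, 12 to 38 leaving out a plate. Gonadotropin-rich (4): 0 by DESeq2 or unfiltered, 2 scaled to members, with 1000 UMIs, without mt- and AC024175 genes or without the high mt- wells. The mean summed share at 37 dpf (26.9%) was 32.6% without mt- and AC024175 genes, 23.7% as the median over wells, 25.1% without 2% erythroid wells and 25.7 to 28.1% by plate. At 5 months (14.4%) it was 22.3% without those genes, 15.2% without class markers, 15.7% with 1000 UMIs, 13.8% over all wells, 12.3% as the median, 16.7% without high mt- wells and 14.0 to 14.7% by plate. At 7 months (13.5%) it was 19.2% without those genes and 11.7 to 15.3% by plate. The cause of these moves was not tested. Alternatives on 2% erythroid wells, high mt- wells and the age term were chosen after seeing the data. Thresholds at 2 times gave no erythroid or gonadotropin-rich fit, and 1000 UMIs no stromal 7 months or pituicyte age fit; with 2 plates, erythroid and gonadotropin-rich wells allowed no plate to be left out. Counting error on the share of any set of at least 10 wells on a plate was at most 0.73 points.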
